A study of Mus musculus with 24 samples.

Results

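The 10 genes studied here act in arginine use. They are the arginases Arg1 and Arg2, the inducible nitric oxide synthase Nos2, the arginine-recycling enzymes Ass1 and Asl, the arginine carriers Slc7a1 and Slc7a2, and the polyamine enzymes Odc1, Srm and Sat1. They were chosen by symbol around the large drop of Arg1 in drug-treated mice, from 36333 genes in the expression table, and all 10 were found there. Because the drop of Arg1 chose the members, Arg1 is described here without a test. The other 9 genes were tested within a fit across all genes.

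Expression was measured by mRNA sequencing of brain tissue around the lesion in 24 male mice, 1 library per mouse, at 5 days post injury (dpi). The labels give the strain as C57BL6N, whereas the study's methods name C57BL/6JRj mice. The labels give an age of 12 to 16 weeks. Traumatic brain injury (TBI) was inflicted by controlled cortical impact (CCI), a piston strike on the exposed cortex. 5 injured mice received vehicle only. 5 received PLX3397 in food pellets at 290 mg/kg from shortly after the impact until 5 dpi. 5 received Anakinra at 100 mg/kg by repeated subcutaneous injection, and 5 received both drugs. 4 mice had sham surgery, by the study's methods a skin incision without craniotomy or impact, and vehicle. Differences between injured and sham mice therefore cannot tell craniotomy and impact apart. PLX3397 inhibits the colony stimulating factor 1 receptor on which microglia and many macrophages depend, and Anakinra blocks the interleukin 1 receptor. The labels name the tissue as cortex, whereas the study's methods describe a brain quadrant with deeper structures. Ppp1r1b, a marker of striatal neurons, was present at 513 to 916 TPM (transcripts per 1000000 transcripts, a scale corrected for gene length) in the injured mice. The identifiers of all 5 vehicle mice, and of no other mouse, end in B. The sources used here do not say what the B marks, so it cannot be told apart from the vehicle group in any comparison with vehicle. Values are TPM, so the depth of each library is unknown, and 22160 to 23249 genes were above 0 TPM per library.

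Arginine is a shared substrate. Arginases split it into urea and ornithine, and nitric oxide synthases turn it into nitric oxide and citrulline. Ass1 and Asl rebuild arginine from citrulline, and Odc1 turns ornithine into putrescine, from which Srm makes spermidine. Sat1 acetylates spermidine and spermine so that they can be exported or broken down. In macrophages, Arg1 is widely used as a marker of alternative activation and Nos2 as a marker of classical activation.

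In the mouse genome (GRCm38.p6), Arg1 lies at chr10:24915207-24927470 and Arg2 at chr12:79130788-79156301. Nos2 lies at chr11:78920787-78960226, and Sat1 lies on the X chromosome at chrX:155213126-155216449. All 10 are annotated as protein-coding genes. Arg1 overlaps the gene model Gm40616, Arg2 overlaps Gm40462 and Vti1b, and Odc1 overlaps Gm22748, and whether reads were counted by strand is not given in the sources used here. The other 7 overlap no annotated gene.

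RefSeq promoter windows on GRCm38.p6 matched 4 of the 10 genes, Ass1, Odc1, Sat1 and Slc7a1. The bases before the start of the 3 of them that differed between vehicle and sham mice are shown 5′ to 3′ on the gene's strand. Capitals mark the GC box GGGCGG read on either strand, a match that 32.7% of 32851 windows of 250 upstream bases held. The stretches are chrX:155216450-155216699 on the minus strand for Sat1, chr12:17544623-17544807 on the plus strand for Odc1 and chr5:148399905-148400154 on the minus strand for Slc7a1.
Sat1: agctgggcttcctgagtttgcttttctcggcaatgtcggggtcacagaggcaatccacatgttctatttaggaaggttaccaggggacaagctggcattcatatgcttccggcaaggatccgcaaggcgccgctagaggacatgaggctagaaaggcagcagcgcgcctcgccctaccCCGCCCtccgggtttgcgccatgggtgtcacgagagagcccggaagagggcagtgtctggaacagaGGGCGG
Odc1: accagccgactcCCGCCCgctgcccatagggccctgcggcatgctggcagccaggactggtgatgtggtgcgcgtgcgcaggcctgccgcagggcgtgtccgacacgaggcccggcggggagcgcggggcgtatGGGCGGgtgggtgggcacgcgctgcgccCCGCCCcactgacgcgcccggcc
Slc7a1: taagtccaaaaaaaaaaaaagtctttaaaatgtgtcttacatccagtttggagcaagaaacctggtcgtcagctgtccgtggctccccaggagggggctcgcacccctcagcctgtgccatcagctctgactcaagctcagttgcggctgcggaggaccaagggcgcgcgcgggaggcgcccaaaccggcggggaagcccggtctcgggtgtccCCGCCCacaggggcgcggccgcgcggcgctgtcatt

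The printed stretches held 2 GC boxes for Sat1, 3 for Odc1 and 1 for Slc7a1. None of the 3 stretches held the E-box CACGTG, the TATA box TATAAA or the cyclic AMP response element TGACGTCA on either strand, which 6.02%, 12.4% and 1.55% of all windows held. The window of Ass1, not shown, held 1 GC box and 1 E-box. A second Slc7a1 window, at a start site inside the gene and not shown, held 1 TATA box. The motifs are letter matches only.

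Arg1, the cytosolic arginase of liver and of activated macrophages, was nearly absent in sham mice and present in all injured mice. The sham mice read 0.29, 0.092 and 0.22 TPM, and the fourth, J15, was listed at 0. The vehicle mice read 20.4, 31.6, 40.6, 42.4 and 78.8 TPM. All vehicle values lay above all sham values, and within the vehicle group the highest mouse, J01B, stood well above the other 4.

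With PLX3397 alone, Arg1 read 9.61, 14.6, 18.1, 24.1 and 25.4 TPM. With Anakinra alone it read 10.1, 12.9, 16.5, 17.7 and 25.6 TPM. Both single-drug groups overlapped the vehicle group only through its lowest mouse, J17B. With both drugs the values were 3.01, 3.26, 3.98, 4.60 and 5.30 TPM, below every mouse of the vehicle and single-drug groups and above every sham mouse.

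The group means of Arg1 were 0.15 ± 0.13 TPM in sham (SD, n = 4), 42.8 ± 21.97 in vehicle, 18.4 ± 6.58 with PLX3397, 16.5 ± 5.90 with Anakinra and 4.03 ± 0.94 with both (SD, n = 5 each). The vehicle mean was 2.33 times the PLX3397 mean, 2.59 times the Anakinra mean and 10.6 times the mean with both drugs. The mean with PLX3397 alone was 4.56 times, and with Anakinra alone 4.11 times, that with both drugs. On the log2(TPM + 1) scale, the difference from vehicle was -1.12 for PLX3397, -1.25 for Anakinra and -3.01 for the combination. The order was vehicle, PLX3397, Anakinra, combination and sham, and the neighbours PLX3397 and Anakinra overlapped almost entirely.

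**Figure D1:**
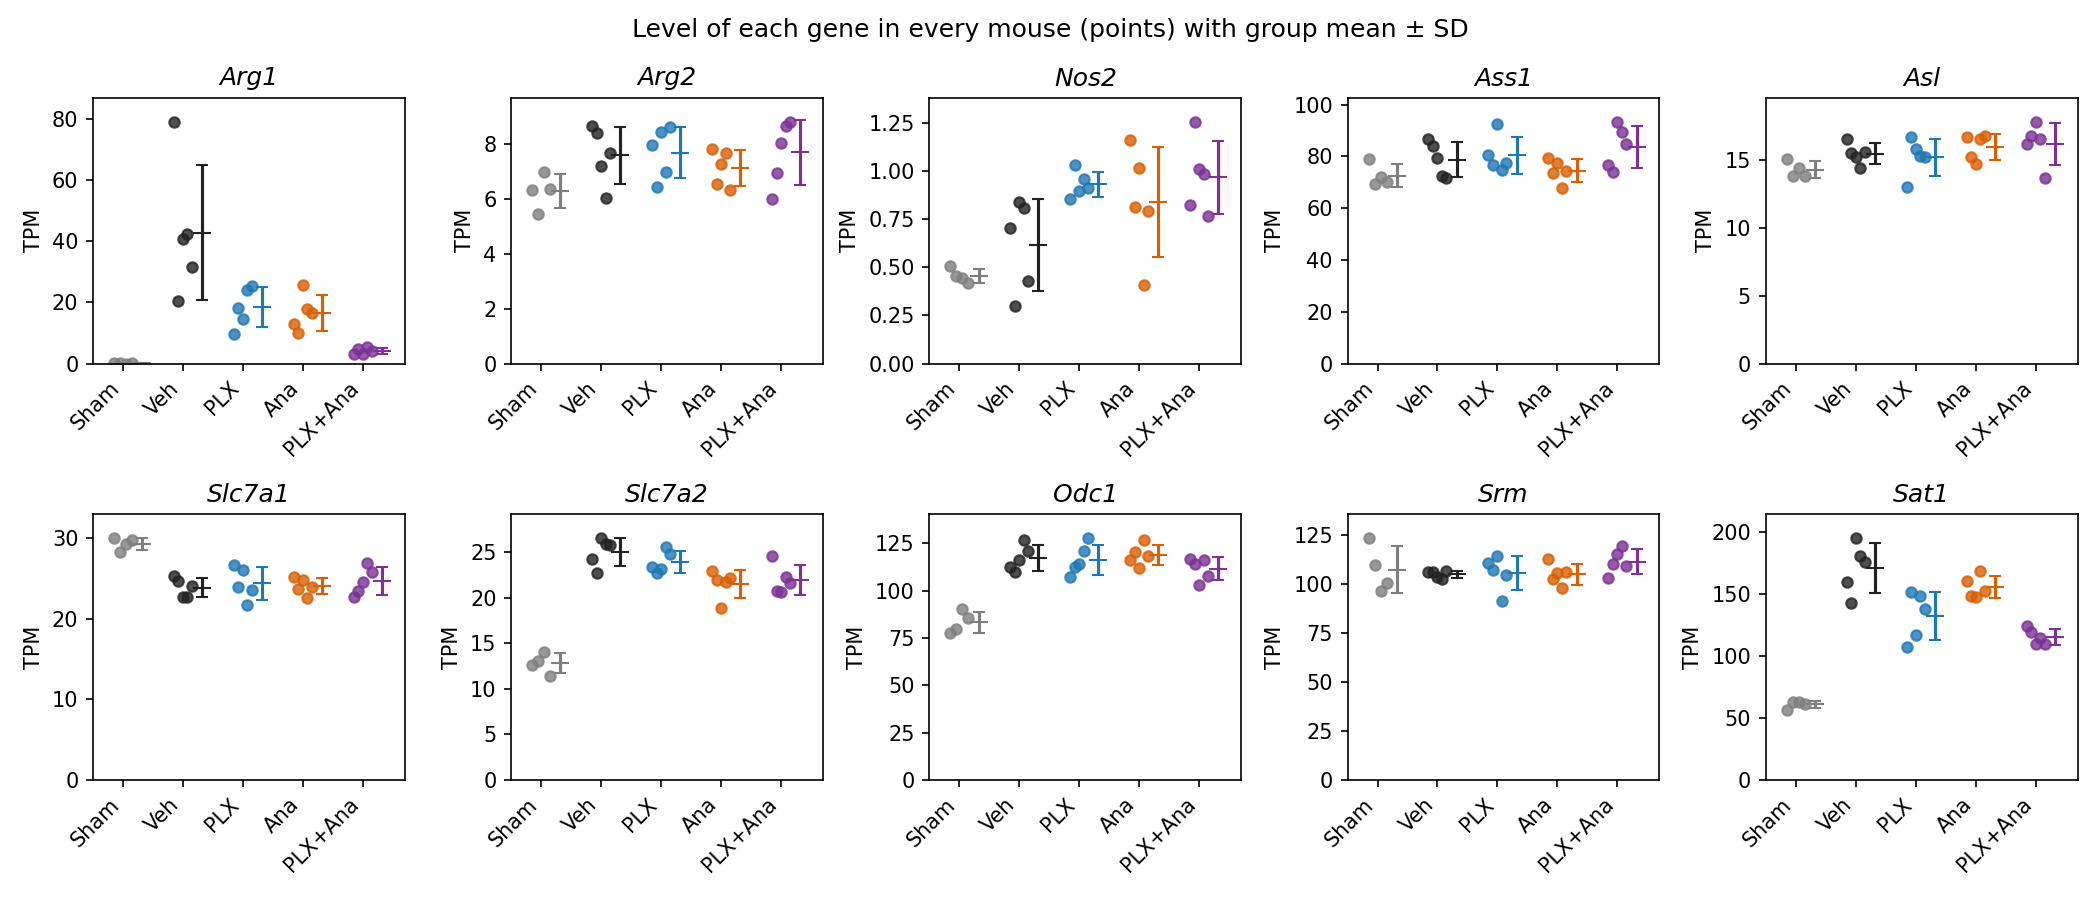
TPM of each of the 10 genes (vertical axis, starting at 0 in every panel) in sham, vehicle (Veh), PLX3397 (PLX), Anakinra (Ana) and PLX3397+Anakinra (PLX+Ana) mice. Each point is a mouse, and the bar beside it is the group mean ± SD. Arg1 falls from 42.8 TPM in vehicle to 4.03 TPM with both drugs, Sat1 falls from 170.7 to 115.3 TPM, and Odc1 and Slc7a2 stay well above sham in all 4 injured groups.

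The level of the brain's phagocytes differed between these groups too. The summed level of 10 phagocyte genes such as Csf1r, Aif1 and Cd68 was 489 to 528 TPM in sham, 3769 to 5569 in vehicle, 1810 to 2974 with PLX3397, 4341 to 4930 with Anakinra and 1435 to 1904 with both drugs. None of the 10 was at 0 in a whole group. A separate list of 8 microglia genes summed to 278 to 303 TPM in sham, 1189 to 1549 in vehicle and 1277 to 1449 with Anakinra. With PLX3397 the microglia genes summed to 523 to 798 TPM and with both drugs to 464 to 635. In tissue samples of this kind, fewer cells of a type and less RNA per cell cannot be told apart.

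Set against the mean of the 10 phagocyte genes on the log2(TPM + 1) scale, Arg1 stood at -3.04 ± 0.60 in vehicle and at -2.95 ± 0.49 with PLX3397 (SD, n = 5 each). With Anakinra it stood at -4.21 ± 0.51 and with both drugs at -4.51 ± 0.31 (SD, n = 5 each). In sham mice it was -5.08 ± 0.12 (SD, n = 4), but with Arg1 near 0 TPM there, the added 1 sets how low this value can be. How near a drug group lies to sham on this measure is therefore not read here. Relative to phagocyte genes, PLX3397 mice lay with the vehicle mice and combination mice with the Anakinra mice, whereas the vehicle and Anakinra groups overlapped between -3.58 and -3.47 only. The share of phagocyte number in the drop of Arg1 was not tested.

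**Figure D2:**
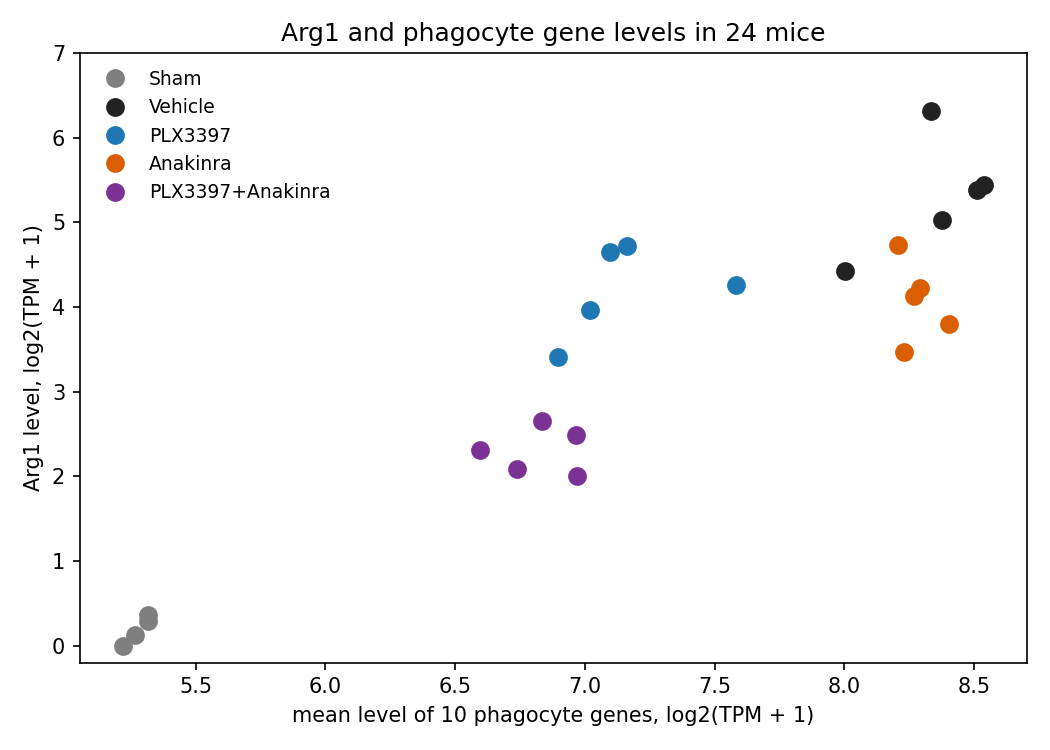
Arg1 (vertical axis) against the mean of 10 phagocyte genes (horizontal axis), both as log2(TPM + 1), with 1 point per mouse coloured by group. Anakinra mice share the phagocyte level of vehicle mice (means of 8.28 and 8.35) but have a lower Arg1 mean (4.07 against 5.32), and mice given both drugs lie lowest among the injured groups on both axes (6.82 and 2.31).

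Other cell types moved with the groups as well. A list of 8 border macrophage genes, among them Mrc1, Pf4 and Cd163, summed to 11.5 to 15.3 TPM in sham and 76.2 to 157 in vehicle. With PLX3397 the sum was 34.5 to 69.7 TPM, with Anakinra 74.2 to 109 and with both drugs 13.6 to 20.6, near sham. Single genes could lie elsewhere: with both drugs Mrc1 averaged 0.68 TPM against 2.37 in sham, and Cd163 0.31 against 1.15. The other genes of the list are not given singly here. The 8 monocyte genes summed to 26.9 to 38.6 TPM in sham, 67.8 to 167 in vehicle and 101 to 181 with PLX3397. With Anakinra they summed to 151 to 233 TPM and with both drugs to 109 to 162, so every drug group overlapped the vehicle group. Of the 8 neutrophil genes only 3, and of the 8 monocyte genes 6, averaged 0.5 TPM or more over the 24 libraries. The 8 neutrophil genes summed to 0.51 to 3.82 TPM in sham and 6.85 to 39.3 TPM in vehicle. Across the drug groups the sums ran from 10.5 TPM (both drugs) to 50.2 TPM (PLX3397), so every injured mouse lay above every sham mouse. Ly6g, which defines neutrophils, did not exceed 0.15 TPM in any mouse, and whether neutrophils were present was not tested. Red blood cell genes were at 2142 to 3195 TPM in sham, 1507 to 4406 in vehicle and 2485 to 3292 with Anakinra. With PLX3397 alone they were at 606 to 1072 TPM, and with both drugs at 725 to 951. Astrocyte genes were at 1522 to 1677 TPM in sham and at 3454 to 4915 in injured mice. Neuron genes were at 6918 to 7288 TPM in sham, 4212 to 5114 in vehicle, 4842 to 5734 with PLX3397, 4441 to 4911 with Anakinra and 5191 to 5482 with both drugs, so that every combination mouse lay above every vehicle mouse. Fibroblast genes were at 83.8 to 93.5 TPM in sham, 141 to 768 in vehicle, 520 to 1199 with PLX3397, 840 to 1622 with Anakinra and 753 to 1258 with both drugs. The part of these cell types in the results was not tested.

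The second arginase, Arg2, is mitochondrial and is encoded by a separate gene. It ranged from 5.46 to 6.98 TPM in sham and from 6.05 to 8.65 in vehicle, and the groups overlapped. With PLX3397 it ranged from 6.45 to 8.61, with Anakinra from 6.33 to 7.81 and with both drugs from 6.02 to 8.80 TPM. Its difference between vehicle and sham was 0.23 on the log2 scale (95% interval 0.02 to 0.45, limma adjusted p = 0.0659). The difference between combination and vehicle was 0.01 (95% interval -0.19 to 0.22, limma adjusted p = 0.948).

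The RNA balance of both arginases differed by group, which restates the drop of Arg1 that chose the members, since Arg2 overlapped between the groups. The ratio of Arg1 to Arg2 TPM within a mouse was 5.66 ± 2.58 in vehicle, 2.43 ± 0.93 with PLX3397, 2.32 ± 0.81 with Anakinra and 0.53 ± 0.11 with both drugs (SD, n = 5 each). Arg1 was the more abundant arginase in every vehicle and single-drug mouse. With both drugs Arg2 was the more abundant in all 5 mice, as it was in all 4 sham mice.

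Nos2 was low throughout. It read 0.42 to 0.51 TPM in sham, 0.30 to 0.84 in vehicle, 0.85 to 1.03 with PLX3397, 0.41 to 1.16 with Anakinra and 0.76 to 1.25 with both drugs. Vehicle and sham overlapped, and the fitted difference of 0.14 did not pass the test (95% interval -0.10 to 0.38, limma adjusted p = 0.33). The 3 drug groups were higher than sham, by 0.41 with PLX3397 (limma adjusted p = 0.00606), 0.32 with Anakinra (limma adjusted p = 0.0228) and 0.43 with both drugs (limma adjusted p = 0.00489). The Anakinra call was lost without Anakinra mouse J05 (limma adjusted p = 0.0731), without J14 (0.0571), without sham mouse J16 (0.0509) and with only both compared groups in the model (0.0529). Every PLX3397 mouse lay above every vehicle mouse, whereas the other drug groups overlapped the vehicle group. Against vehicle, the differences were 0.27 for PLX3397 (limma adjusted p = 0.136), 0.18 for Anakinra (0.511) and 0.29 for the combination (0.0712).

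Of the 9 tested genes, 4 differed between vehicle and sham at an adjusted p below 0.05, 3 of them higher and 1 lower. Over all 17267 genes tested, 26.6% were higher and 27.7% were lower in this comparison. In a test over the 5 groups at once, 5 of the 9 differed (Nos2, Odc1, Sat1, Slc7a1 and Slc7a2), where 51.9% of all genes did. The median difference of the 9 genes between vehicle and sham was 0.14 on the log2 scale, beside -0.01 over all genes.

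Sat1, the polyamine acetyltransferase, rose with injury. Sham mice read 56.7, 61.5, 62.6 and 63.0 TPM, and vehicle mice 142.6, 159.3, 176.0, 181.0 and 194.8 TPM. The groups were far apart, the vehicle mean being 2.80 times the sham mean (log2 difference 1.46 ± 0.09 SE, limma adjusted p = 4.78e-13).

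Slc7a2, a cationic amino acid carrier that macrophages and astrocytes can use for arginine, rose as well. Sham mice read 11.4, 12.6, 13.04 and 14.1 TPM, and vehicle mice 22.7, 24.3, 25.7, 25.9 and 26.5 TPM. The groups did not overlap, and the vehicle mean was 1.96 times the sham mean (log2 difference 0.92 ± 0.07 SE, limma adjusted p = 1.39e-11).

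Odc1, which makes putrescine from ornithine, read 77.8, 80.0, 85.7 and 90.1 TPM in sham and 110.0, 112.7, 116.0, 121.2 and 127.0 TPM in vehicle mice. All vehicle mice lay above all sham mice, at 1.41 times the mean (log2 difference 0.49 ± 0.06 SE, limma adjusted p = 5.32e-08).

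Slc7a1, the widely expressed arginine carrier, went the other way. Sham mice read 28.3, 29.3, 29.8 and 30.0 TPM and vehicle mice 22.7, 22.7, 24.1, 24.7 and 25.3 TPM. All vehicle mice were below all sham mice (log2 difference -0.29 ± 0.06 SE, limma adjusted p = 0.000158). The ratio of Slc7a2 to Slc7a1 within a mouse was 0.44 ± 0.04 in sham (SD, n = 4) and 1.05 ± 0.11 in vehicle (SD, n = 5), and it lay between 0.76 and 1.18 in the 3 drug groups.

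The remaining genes did not pass the test between vehicle and sham. Srm, spermidine synthase, read 96.2 to 123 TPM in sham and 102 to 107 in vehicle (95% interval of the log2 difference -0.16 to 0.10). Ass1, which joins citrulline and aspartate, read 69.5 to 79.1 TPM in sham and 71.7 to 86.6 in vehicle (-0.03 to 0.26). Asl, which releases arginine from the product, read 13.8 to 15.1 TPM in sham and 14.4 to 16.6 in vehicle (-0.04 to 0.25).

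Most of these injury differences were also present in the drug-treated mice. Against sham, 5 of the 9 genes differed with PLX3397, 5 with Anakinra and 6 with both drugs, where 45.2%, 54.4% and 38.8% of all genes did. Odc1, Sat1, Slc7a2 and Nos2 were higher and Slc7a1 lower in each of the 3 comparisons, which share the 4 sham mice. The sixth gene with both drugs was Ass1, 0.20 above sham (limma adjusted p = 0.0306). This call was lost without combination mouse J09 (limma adjusted p = 0.0891), J10 (0.0771) or J17 (0.0519), without sham mouse J08 (0.0859), J15 (0.062) or J16 (0.0797), and with every gene above 0 TPM tested (0.0531).

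On the log2(TPM + 1) scale, Sat1 differed most from vehicle of the 9 tested genes with PLX3397 and with both drugs. It was lower in both groups. In mean TPM, Sat1 was 0.78 and 0.68 times vehicle, and Nos2, at means under 1 TPM, 1.51 and 1.57 times. The added 1 shrinks the difference of so low a gene, and Nos2 did not pass the test against vehicle. For Sat1, the PLX3397 mice read 107.3, 117.2, 138.1, 148.1 and 151.6 TPM, and the combination mice 109.4, 109.6, 114.4, 119.2 and 124.0 TPM. The Anakinra mice read 147.2, 148.5, 152.7, 160.6 and 168.3 TPM. The PLX3397 group overlapped the vehicle group, whereas every combination mouse was below every vehicle and every Anakinra mouse and above every sham mouse.

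Against vehicle, Sat1 differed by -0.37 ± 0.08 SE with PLX3397 (limma adjusted p = 0.00372), by -0.13 ± 0.08 SE with Anakinra (limma adjusted p = 0.539) and by -0.56 ± 0.08 SE with both drugs (limma adjusted p = 1.83e-05). With only both compared groups in the model, the PLX3397 call was lost (limma adjusted p = 0.0585). It was the only one of the 9 genes lower with PLX3397, none was higher, and 6.66% of all genes were lower and 3.23% higher. With both drugs the mean was 0.68 times the vehicle mean. The combination was also below Anakinra alone, by -0.43 ± 0.08 SE (limma adjusted p = 0.000603), while its difference of -0.19 from PLX3397 alone did not pass the test (95% interval -0.36 to -0.02, limma adjusted p = 0.664). The groups with lower Sat1, PLX3397 and combination, are those with the lower summed phagocyte levels given above, and the part of phagocyte number was not tested.

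Slc7a2 overlapped the vehicle group under every treatment. With PLX3397 it read 22.7 to 25.6 TPM, with Anakinra 18.8 to 22.9 and with both drugs 20.6 to 24.6. The combination differed from vehicle by -0.18 ± 0.06 SE (limma adjusted p = 0.0409), and Anakinra by -0.21 ± 0.06 SE, which did not pass the adjusted test (limma adjusted p = 0.141). The combination call was lost without vehicle mouse J18B (limma adjusted p = 0.114), J19B (0.0967) or J20B (0.0869) and without combination mouse J04 (0.0922), J09 (0.105), J10 (0.0612) or J17 (0.0753). It was also lost with every gene above 0 TPM tested (0.0584) and with only both compared groups in the model (0.0719).

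In all, 2 of the 9 genes were lower and none was higher in the combination against vehicle, where 9.6% of all genes were lower and 7.88% higher. Anakinra alone moved none of the 9 against vehicle by limma, with 1 at an unadjusted p below 0.05 as were 12.4% of all genes. By the adjusted p, 0.0463% of all genes were lower and 0.0695% higher. Against PLX3397 alone, the combination moved none of the 9 by limma, with 1 at an unadjusted p below 0.05 as were 6.71% of all genes. By the adjusted p, 0.145% of all genes were lower and 0.00579% higher. Against Anakinra alone, 1 of 9 was lower (Sat1), where 8.1% of all genes were lower and 4.67% higher. The comparisons against vehicle share the 5 vehicle mice.

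**Figure D3:**
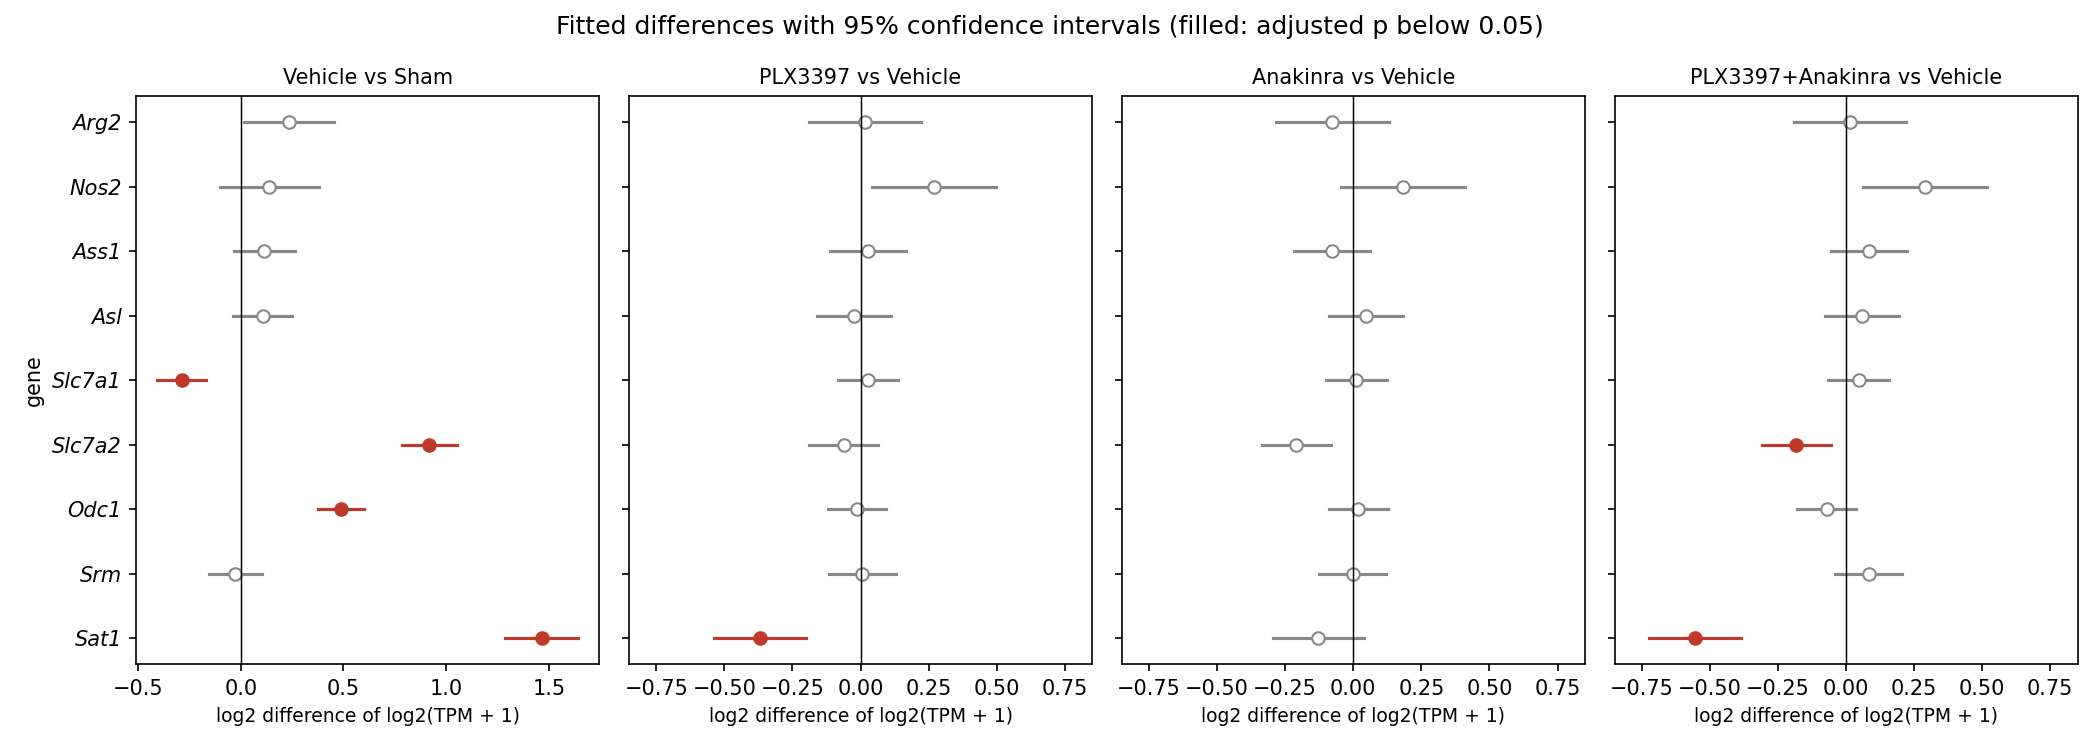
Fitted log2 differences (horizontal axis, on the log2(TPM + 1) scale) of the 9 tested genes with 95% confidence intervals, for vehicle against sham and for each drug group against vehicle. The axis of vehicle against sham is wider than the others. Filled red points passed at an adjusted p below 0.05: Slc7a2, Odc1 and Sat1 above 0 and Slc7a1 below 0 after injury, then Sat1 at -0.37 with PLX3397, and Sat1 at -0.56 and Slc7a2 at -0.18 with both drugs.

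The interaction of PLX3397 and Anakinra, the difference of the combination from the sum of both single-drug effects, passed for none of the 9 genes by limma, and none had an unadjusted p below 0.05. It passed for 0% of all genes, and the smallest adjusted p among the 9 was 0.721. The interval for Sat1 was -0.30 to 0.18 and that for Slc7a2 -0.09 to 0.27, both on the log2 scale.

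Odc1 did not pass the test against vehicle with any treatment. It ranged from 107 to 128 TPM with PLX3397, from 112 to 127 with Anakinra and from 103 to 117 with both drugs, and the combination differed from vehicle by -0.07 (95% interval -0.18 to 0.04). The within-mouse ratio of Sat1 to Odc1 was 0.73 ± 0.04 in sham (SD, n = 4) and 1.45 ± 0.14 in vehicle (SD, n = 5). It was 1.14 ± 0.15 with PLX3397, 1.31 ± 0.05 with Anakinra and 1.03 ± 0.03 with both drugs (SD, n = 5 each). Slc7a1 read 21.8 to 27.0 TPM over the 3 drug groups, Srm 91.3 to 119, Ass1 67.8 to 93.3 and Asl 13.01 to 17.8, and none of these genes passed the test against vehicle in any drug group.

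The 10 genes varied to different degrees between mice of 1 group. The coefficient of variation of Arg1 was 51.4% in vehicle, 35.8% with PLX3397, 35.7% with Anakinra and 23.5% with both drugs. That of Sat1 was 5.49% to 14.7% and that of Odc1 4.62% to 6.87% in the injured groups, and that of Nos2, the least abundant gene, reached 38.7%. Across the 20 injured mice, the deviations of each of the 9 genes from its group mean were set against those of Arg1. Sat1 had the highest Pearson r, 0.42 (Spearman rho 0.28), followed by Nos2 with 0.37 (rho 0.44) and Odc1 with 0.29 (rho 0.31). None of the 9 passed in a two-sided permutation test within groups: for Sat1 p = 0.147 (rho: p = 0.308), for Nos2 p = 0.178 (rho: p = 0.0799) and for Odc1 p = 0.265 (rho: p = 0.222), and all adjusted p were at least 0.669. Without J17B and J01B, the mice farthest from the median of Arg1, r was 0.46 for Sat1, 0.18 for Nos2 and 0.36 for Odc1. For the other 6 genes r lay between -0.22 and 0.21.

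The genes whose level followed Arg1 most closely over all 24 libraries were Wfdc17 (Pearson r 0.973 on the log2(TPM + 1) scale, and 0.937 over the 20 injured mice), Cd300lf (0.969 and 0.920), Mmp8 (0.964 and 0.921), Cxcr4 (0.960 and 0.894) and Apoc2 (0.959 and 0.897). The libraries share their groups, so these r values describe the group pattern. Wfdc17, a small secreted protein gene of macrophages, read 1.76 ± 0.30 TPM in sham (SD, n = 4), 93.9 ± 21.4 in vehicle, 42.2 ± 9.89 with PLX3397, 47.4 ± 8.43 with Anakinra and 15.6 ± 1.94 with both drugs (SD, n = 5 each). Apoc2, an apolipoprotein gene, read 35.3 ± 5.85 TPM in vehicle and 6.03 ± 2.19 with both drugs (SD, n = 5 each). Mmp8, a collagenase gene best known from neutrophils and 1 of the 8 neutrophil genes above, was listed at 0 in all 4 sham mice and read 3.82 ± 0.44 TPM in vehicle and 0.66 ± 0.23 with both drugs (SD, n = 5 each).

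Around these 10 genes, 5 pathway lists held 52 further genes, of which 49 passed the filter. Otc, Cps1 and Nags, the mitochondrial urea cycle genes of liver, fell under it and did not exceed 0.29 TPM in any mouse. After injury, 17 of the 49 were higher, 14 lower and 18 did not pass, with a median log2 difference of 0.10. Over all genes, 26.6% were higher and 27.7% lower. In the arginine, urea and ornithine list 4 of 6 tested genes were higher and 1 lower. Oat, which interconverts ornithine and glutamate semialdehyde, rose from 125 ± 7.36 TPM in sham (SD, n = 4) to 164 ± 14.7 in vehicle (SD, n = 5; limma adjusted p = 2.06e-05). Agmat, annotated as agmatinase, fell by 0.60 on the log2 scale (limma adjusted p = 0.00381) at levels below 2.1 TPM.

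In the nitric oxide list, 6 of 15 genes were higher and 3 lower after injury, where 26.6% and 27.7% of all genes were. Ddah2, of the family named for the clearance of methylated arginines that inhibit nitric oxide synthases, rose by 1.22 on the log2 scale, from 11.4 ± 0.48 TPM in sham (SD, n = 4) to 28.2 ± 3.54 in vehicle (SD, n = 5; limma adjusted p = 2.97e-10). Gch1, the first enzyme of tetrahydrobiopterin synthesis, rose by 0.95 (limma adjusted p = 0.000353). Nos1ap, an adaptor of the neuronal synthase, fell by 0.71 (limma adjusted p = 2.82e-11), from 106 ± 2.59 TPM in sham (SD, n = 4) to 64.3 ± 2.94 in vehicle (SD, n = 5). The neuronal synthase Nos1 itself read 14.9 to 17.1 TPM in sham and 15.5 to 21.6 in vehicle, and the endothelial synthase Nos3 read 7.20 to 10.1 and 7.99 to 11.7 TPM. Neither passed (limma adjusted p = 0.331 and 0.121), and both were above Nos2 on this length-normalised scale in all groups.

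In the polyamine list, 4 of 18 genes were higher and 8 lower after injury, where 26.6% and 27.7% of all genes were. Paox, an oxidase of acetylated polyamines, rose by 0.82 on the log2 scale (limma adjusted p = 1.57e-07), from 6.20 to 7.59 TPM in sham to 10.2 to 14.3 TPM in vehicle. Smox, spermine oxidase, rose by 0.46 (limma adjusted p = 6.62e-05). Sms, spermine synthase, fell by 0.39 (limma adjusted p = 1.31e-06), Amd1, which supplies decarboxylated S-adenosylmethionine, fell by 0.20 (limma adjusted p = 0.0103), and Dohh, which completes the hypusine residue of Eif5a, fell by 0.40 (limma adjusted p = 6.33e-06). Azin1, the antizyme inhibitor, did not pass (difference -0.10, limma adjusted p = 0.1).

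Of the 6 proline genes 1 was higher and 1 lower, and of the 4 cationic transport genes 2 were higher and 1 lower. The shares over all genes were 26.6% higher and 27.7% lower. Slc7a7, the light chain of a cationic amino acid exchanger, rose from 1.60 to 1.92 TPM in sham to 8.22 to 11.4 TPM in vehicle (log2 difference 2.00, limma adjusted p = 1.3e-13).

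Against vehicle, PLX3397 lowered 2 of the 49 pathway genes and raised none, where 6.66% of all genes were lower and 3.23% higher. They were Slc7a7 by 0.79 (limma adjusted p = 7e-06) and Paox by 0.45 (limma adjusted p = 0.00195) on the log2 scale, and without PLX3397 mouse J19 the count was 4. Anakinra moved none by limma, with 9 at an unadjusted p below 0.05, as were 12.4% of all genes. The combination lowered 3 and raised 4, where 9.6% of all genes were lower and 7.88% higher, so these counts lie near the share over all genes. Slc7a7 fell by 1.08 (limma adjusted p = 2.41e-08), Gch1 by 0.60 (limma adjusted p = 0.032) and Paox by 0.57 (limma adjusted p = 8.68e-05). Pycr1, of proline synthesis, rose by 0.33 (limma adjusted p = 0.0352), Nos1ap by 0.18 (limma adjusted p = 0.0146), Dohh by 0.17 (limma adjusted p = 0.0428) and Azin2 by 0.15 (limma adjusted p = 0.031). The summed neuron genes moved the same way, at 5191 to 5482 TPM with both drugs against 4212 to 5114 in vehicle, and their part in these rises was not tested. The combined count of 7 was 4 without vehicle mouse J18B or J19B or without combination mouse J04 or J09, 3 without vehicle mouse J20B, and 4 with every gene above 0 TPM tested. Against PLX3397 alone the combination moved none of the 49 by limma, with 2 at an unadjusted p below 0.05, as were 6.71% of all genes. Against Anakinra alone 3 were lower and 1 higher, where 8.1% of all genes were lower and 4.67% higher. The medians of the 49 genes were 0.01 with PLX3397, -0.01 with Anakinra and 0.02 with both drugs against vehicle, beside 0.01, -0.02 and 0.01 over all genes.

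Genes often used beside Arg1 as markers of alternative macrophage activation were listed separately. Of the 13, Retnla, Ccl22 and Ccl24 fell under the filter. Of the 10 tested, 7 were higher after injury and none lower, where 26.6% of all genes were higher and 27.7% lower. Msr1, a scavenger receptor, rose by 3.49, Chil3, a chitinase-like protein, by 1.85, Il4ra, the interleukin 4 receptor, by 1.85, and Tgm2, a transglutaminase, by 1.22 on the log2 scale (limma adjusted p = 7.76e-16, 8.32e-09, 9.27e-11 and 1.34e-07). PLX3397 lowered 6 of the 10 and both drugs lowered 7 against vehicle, where 6.66% and 9.6% of all genes were lower. Anakinra moved none by limma, and none had an unadjusted p below 0.05. The median differences from vehicle were -0.55 with PLX3397, -0.01 with Anakinra and -0.92 with both drugs. The summed phagocyte and border macrophage genes given above were also below vehicle with PLX3397 and with both drugs. Mrc1 and Cd163 belong to that border macrophage list and Chil3 to the monocyte list. The part of cell number in these falls was not tested.

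Mrc1, the mannose receptor, read 1.87 to 3.01 TPM in sham, 4.48 to 7.60 in vehicle and 4.64 to 7.13 with Anakinra. It read 0.65 to 1.38 TPM with PLX3397 and 0.39 to 1.12 with both drugs, so every mouse of these 2 groups lay below every sham mouse. Its difference from vehicle was 0.00 with Anakinra (95% interval -0.28 to 0.29) and -2.06 with both drugs (limma adjusted p = 1.3e-10). Msr1 differed from vehicle by -0.21 with Anakinra (95% interval -0.49 to 0.08) and by -1.64 with both drugs (limma adjusted p = 2.73e-09). Clec10a, a lectin of macrophages and dendritic cells, and Il4ra fell by 1.38 and 0.95 with both drugs (limma adjusted p = 1.56e-06 and 1.29e-05). The comparison with PLX3397 alone passed for none of the 10 by limma, with 3 at an unadjusted p below 0.05 (6.71% of all genes). That with Anakinra alone passed for 8, all lower with both drugs, where 8.1% of all genes were lower and 4.67% higher.

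**Figure D4:**
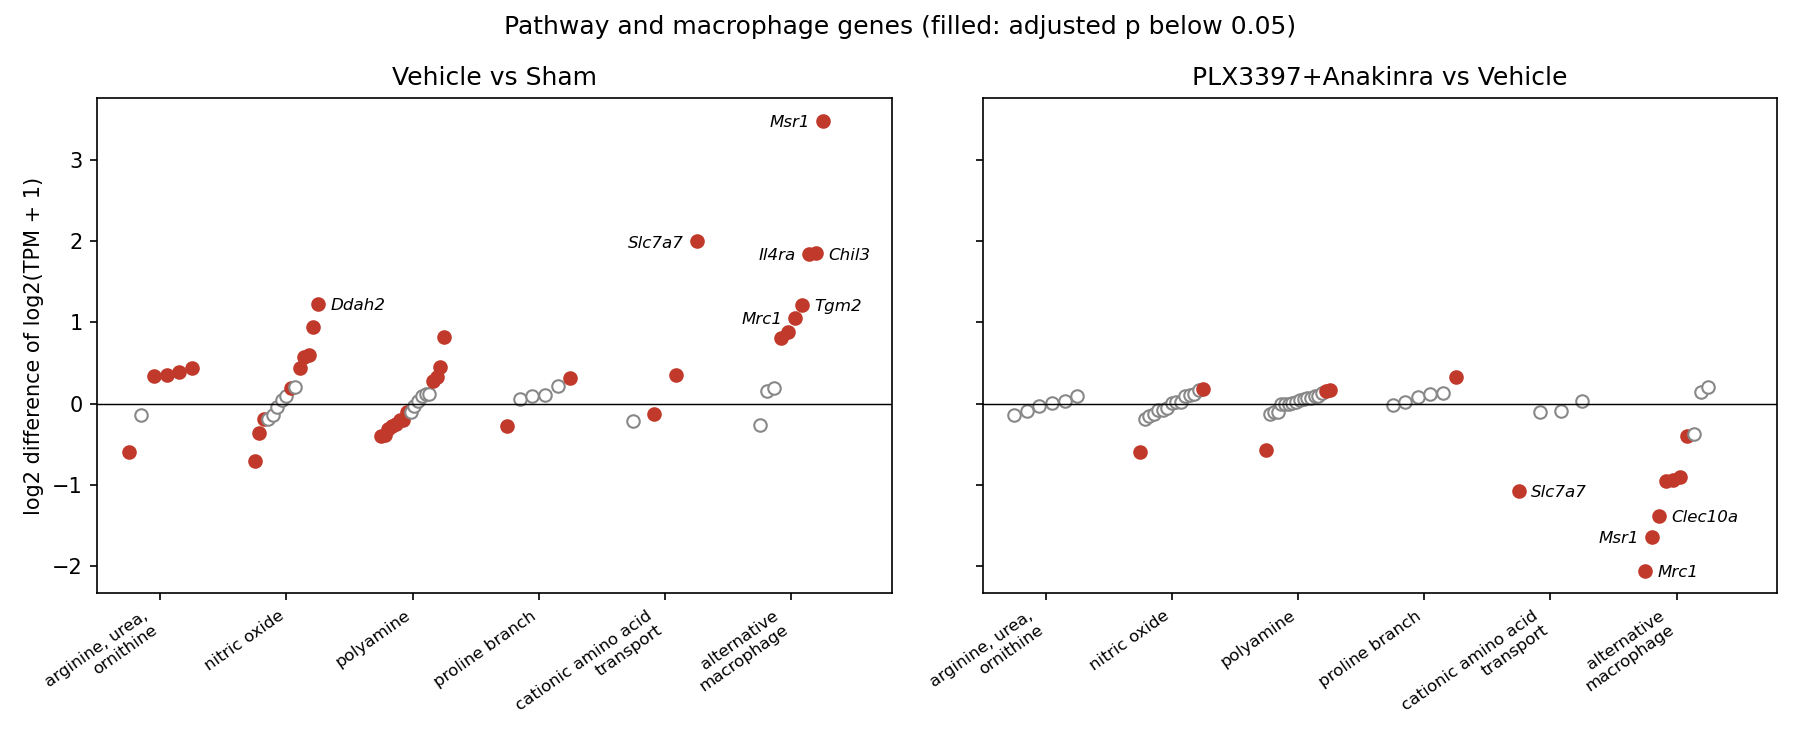
Fitted log2 differences (vertical axis, log2(TPM + 1) scale) of 49 pathway genes and 10 alternative macrophage genes, arranged by list, for vehicle against sham and for PLX3397+Anakinra against vehicle. Each point is a gene, filled red at an adjusted p below 0.05, and passing genes that differ by more than 1 are named. Injury moved 31 of the 49 pathway genes in both directions, the combination moved 7, and 7 of the 10 macrophage genes fell with both drugs. Over all genes, 26.6% were higher and 27.7% lower after injury, and 7.88% higher and 9.6% lower with both drugs.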

How the data were processed

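The authors isolated polyadenylated mRNA, sequenced it and mapped it with CLC Genomics Workbench. The labels name the build GRCm38. The authors deposited TPM per gene and mouse, and no read counts were used here, so library depth is unknown. Their table of group comparisons holds P values and fold changes and was not used. Genes averaging 0.5 TPM or more in the 24 libraries (17267 of 36333, all 10 members among them) were fitted as log2(TPM + 1) with limma 3.58.1 in R 4.3.3, with 1 mean per group, a trended prior and Benjamini-Hochberg adjustment over all genes tested. Fold differences on this scale understate those of low genes, Nos2 above all. Called means an adjusted p below 0.05. Correlations were tested with 100000 permutations within groups. The script was tested on simulated data. Each library is 1 mouse, so the limma tests set group differences against the spread between mice, estimated over all groups together. The members and gene lists were chosen with earlier results of these data known. Named beyond the members were, of the pathway and macrophage lists, up to 4 called genes in each direction with the largest difference in 2 comparisons, 7 further genes fixed in the rule, and the 5 genes most like Arg1. Slc7a7 and Paox with PLX3397, and Ppp1r1b, Ly6g, P2ry12, Tmem119 and Cd163, were named after their values were seen. Alternatives were another pseudocount, other filters, rescaling, other models and call rules, and leaving out each mouse in turn.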

Additional observations from a re-analysis of the deposited data

Results flagged for a closer look

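Among 160 combinations of 32 named genes and 5 groups, 7 had a mouse far from the others of its group by Dixon's criterion, which chance gives for about 1 in 20 groups. Of the 10 members only Slc7a2 was among them: Anakinra mouse J14 read 18.8 TPM, below the next lowest at 21.7 TPM. Gch1 read 9.75 TPM in Anakinra mouse J05, above the next at 4.00 TPM. Nos1ap read 69.4 TPM in vehicle mouse J17B. That mouse also had the lowest Arg1, Nos2, Odc1, Sat1 and Slc7a2 of its group and the lowest mean of the phagocyte genes. For Arg2, Srm, Slc7a1, Ass1 and Asl it was not the lowest. Tgm2 read 36.0 TPM in combination mouse J09. In sham mice, Chil3 read 0.16 TPM in J15 and was listed at 0 in the others, Clec10a read 0.58 TPM in J15, and Il4ra read 3.57 TPM in J08.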

How the results depend on the processing

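For single members that passed the test, 364 of 385 refits kept direction and call, 21 lost the call and none reversed. The 21 are Slc7a2 in the combination against vehicle (9 of 17 refits, adjusted p up to 0.114), Ass1 (7 of 16) and Nos2 with Anakinra (4 of 15) against sham, and Sat1 with PLX3397 against vehicle (1 of 17). With only the compared groups in the model, the members called were 0 for PLX3397 and 1 for the combination against vehicle. With every gene above 0 TPM tested, the combination moved 1 member and 4 pathway genes against vehicle. The cause was not tested. At an unadjusted p below 0.05, the members were 2 for PLX3397 and 1 for Anakinra against vehicle, and 1 and 2 for the combination against PLX3397 and Anakinra. The pathway genes were then 11, 9 and 15 for PLX3397, Anakinra and the combination against vehicle and 2 and 11 for the combination against PLX3397 and Anakinra, and the macrophage genes 3 for the combination against PLX3397. With the study's limits (p, a ratio above 2 and a difference above 4 TPM), the members were 1 after injury (Arg1 not counted), 0 for PLX3397 and for the combination against vehicle, 0 for the combination against Anakinra, and 1, 1 and 0 for PLX3397, Anakinra and the combination against sham. The pathway genes were then 2 after injury, 0 for PLX3397, 1 for the combination against vehicle and 1 against Anakinra, and the macrophage genes 3, 2, 3 and 2. With a mean of at least 5 TPM required, the macrophage genes were 4 after injury, 3 for PLX3397, 3 for the combination against vehicle and 4 against Anakinra, since fewer genes were tested. With a pseudocount of 0.1, the log2 differences of Arg1 from sham were 7.46 for vehicle, 6.30 for PLX3397, 6.16 for Anakinra and 4.19 for the combination, where the sham level is near 0. Leaving out a mouse gave 1 to 2 members and 3 to 7 pathway genes for the combination against vehicle and 2 to 4 pathway genes for PLX3397. Rescaling by median ratios (factors of 0.975 to 1.05) changed no count by over 1.5 times. The alternatives for the pathway and macrophage counts, and the replicate block, were chosen after seeing the data. Apart from the suffix B, vehicle mice J01B, J19B and J20B share a number with PLX3397 mice and J17B with a combination mouse. The labels do not say that numbers pair mice, and the deviations of these pairs from their group means had r of 0.173, -0.134, -0.0656 and 0.318 across genes. With the number as a replicate block (limma, consensus correlation 0.247), PLX3397 moved 5 pathway genes and 1 member against vehicle. The combination moved 6 pathway genes and 2 members, and no member lost its call.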
